A study of Mus musculus with 36 samples.

Results

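Spink5, Igfbp4, Tspan10 and Ndrg4 are 4 of the 49568 gene names counted in the mouse macrophage line RAW264.7, and all 4 passed the low count filter in both tables of the study. They were chosen on values of the same data, because they were low with the peptide 65–79*PE plus IFNγ or differed between the peptides. Their values in the IFNγ series are therefore described without a test, and tests are given for the Il-4 series, whose 18 libraries are other ones. The study asked whether short synthetic peptides from human HLA-DRβ chains polarize macrophages. The peptide 65–79*SE (SE below) carries the shared epitope, a motif of HLA alleles that raise the risk of rheumatoid arthritis, and 65–79*PE (PE) carries the protective epitope of other alleles. The series comprised 36 libraries in 6 groups of 6, with PBS, SE and PE in an IFNγ table and PBS, SE and PE in an Il-4 table. The peptide dose was 100 µg/ml and that of each cytokine 5 ng/ml, with IFNγ as the M1 and Il-4 as the M2 stimulus, and RNA was taken at 72 h. All cells came from 1 line and none was genetically modified. Replicates 1–3 and 4–6 of each group are named by different schemes in the labels and are shown apart as label sets.

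The 4 genes act in different settings. Spink5 encodes LEKTI, a secreted inhibitor with many Kazal-type domains that blocks kallikrein proteases and is best known from skin, where its loss causes Netherton syndrome. Igfbp4 encodes a secreted protein that binds insulin-like growth factors and keeps them from their receptor. Tspan10 encodes a tetraspanin of the TspanC8 group, the membrane proteins that escort the protease Adam10 to the cell surface. Ndrg4 is a member of the N-myc downstream regulated family and is best known from brain and heart. IFNγ activates macrophages and induces guanylate-binding proteins, antigen presentation genes and chemokines such as Cxcl9.

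The 250 bases before the annotated start are shown for 3 of the genes, since these were low together with PE in the IFNγ series. They were read from RefSeq sequence of GRCm38.p6, + strand, 5′ to 3′, and matched 1 start for Igfbp4, 1 for Tspan10 and 4 for Ndrg4. Spink5 had no entry in that table. Capitals mark a TATA box (TATAAA, searched on the + strand only) or the E-box pattern TCANGTG (N is any base, searched on both strands). Igfbp4 lies at chr11:99041244-99054392, Tspan10 at chr11:120442644-120446950 and Ndrg4 at chr8:95676980-95715119 in GRCm38. The windows shown are chr11:99040994-99041243 for Igfbp4, chr11:120442381-120442630 for Tspan10, and chr8:95676724-95676973 and chr8:95702806-95703055 for the first and the last of the Ndrg4 starts.
Igfbp4: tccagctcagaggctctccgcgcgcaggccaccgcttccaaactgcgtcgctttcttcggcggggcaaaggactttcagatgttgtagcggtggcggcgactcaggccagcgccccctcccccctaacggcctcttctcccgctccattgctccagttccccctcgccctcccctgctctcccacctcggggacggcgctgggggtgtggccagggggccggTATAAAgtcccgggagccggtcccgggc
Tspan10: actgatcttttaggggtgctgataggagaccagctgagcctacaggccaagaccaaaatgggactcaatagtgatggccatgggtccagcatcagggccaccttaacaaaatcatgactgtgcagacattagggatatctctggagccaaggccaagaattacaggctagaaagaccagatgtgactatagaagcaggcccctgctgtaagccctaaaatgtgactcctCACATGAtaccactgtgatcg
Ndrg4 first start: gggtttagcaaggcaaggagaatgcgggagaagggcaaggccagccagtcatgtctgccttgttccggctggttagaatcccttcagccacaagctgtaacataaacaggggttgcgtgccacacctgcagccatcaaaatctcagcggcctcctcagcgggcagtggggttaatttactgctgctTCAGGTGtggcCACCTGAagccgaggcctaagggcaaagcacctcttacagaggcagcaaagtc
Ndrg4 last start: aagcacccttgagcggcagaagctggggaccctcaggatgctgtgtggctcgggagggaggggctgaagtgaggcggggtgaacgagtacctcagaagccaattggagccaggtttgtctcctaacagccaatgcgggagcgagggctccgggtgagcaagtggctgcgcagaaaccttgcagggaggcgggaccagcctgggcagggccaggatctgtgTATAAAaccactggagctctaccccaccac

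The Igfbp4 window held a TATA box at −28 to −23, counted from the first transcribed base, and the last Ndrg4 window held 1 at −30 to −25. The first Ndrg4 window held the E-box pattern as TCAGGTG on the + strand at −64 to −58. It held the pattern again on the opposite strand at −53 to −47, printed as CACCTGA. The Tspan10 window held 1 match on the minus strand at −21 to −15, printed as CACATGA. Of 32851 windows of 250 bases, 7.59% held the TATA box and 12.2% the E-box. The PU.1 core GAGGAA and the AP-1 site TGANTCA, searched on both strands and held by 23.3% and 6.75% of all windows, were in none of the 6 windows of these 3 genes. None of the motifs overlapped another in these windows.

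Total counts per library were 20666573 to 63155889 in the IFNγ table and 17049921 to 30639021 in the Il-4 table, so that 3 counts, the most that a count of 0 allows, corresponded to 0.0475–0.145 CPM and 0.0979–0.176 CPM. These floors cover counting error only. CPM are counts per 1000000 of the library size after TMM scaling. The lowest count of any member in any library was 13, for Tspan10 in the Il-4 table. Macrophage markers summed to between 3814 and 12089 CPM, with 9 of 10 above 3 counts in every library of each table. Replication-dependent histone genes, most of whose mRNAs are not polyadenylated, summed to 63.5–164 CPM in replicates 1–3 and 2601–7186 CPM in replicates 4–6 of the IFNγ table, and to 54.0–140 and 3442–14569 CPM in the Il-4 table. Removing histone genes before scaling moved no log2 fold change of a member past the spread or the threshold.

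The libraries labelled SE with IFNγ, replicates 4–6, stood apart from their group. A list of 24 IFNγ response genes, scored as the mean log2 CPM, was at 6.04 ± 0.07 (SD, n = 3) in SE replicates 1–3 and at 1.00 ± 0.17 in SE replicates 4–6. PE scored 6.05 ± 0.02 and 6.25 ± 0.05 in the same sets, and PBS 0.95 ± 0.02 and 1.22 ± 0.14. PBS is labelled with the cytokine of its series but did not carry the response to it, so the effects of cytokine and peptide cannot be told apart in any contrast with PBS. In the Il-4 table, counted and scaled separately, the same score was between 0.99 and 1.51 in the means of all groups and sets. A list of Il-4 response genes, 18 of them counted, was scored in that table in the same way. Its score ran from -1.47 to -0.99 in PBS, 0.25 to 0.88 in SE and 0.04 to 0.91 in PE. Each result on SE with IFNγ is therefore given per label set.

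**Figure D1:**
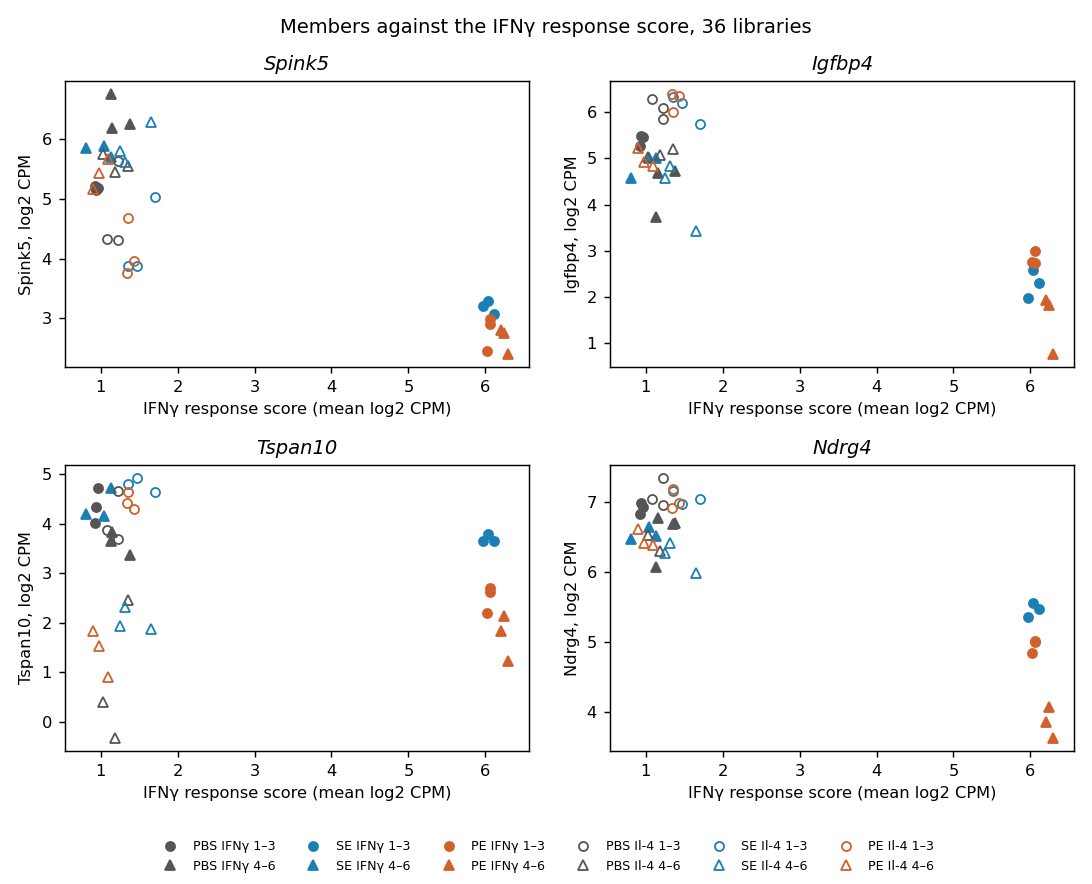
Level of each member (log2 CPM, y axis) against the IFNγ response score (mean log2 CPM of 24 genes, x axis) in 36 libraries, filled for the IFNγ series and open for the Il-4 series, with circles for replicates 1–3 and triangles for replicates 4–6. The 9 filled points at the right are the 6 PE libraries and SE replicates 1–3 with IFNγ, and the filled SE triangles lie with PBS at the left, where scores run from 0.81 to 1.71.

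The plot against the score shows 2 clusters of libraries with no library between them, so no correlation with the score is given. The order between the clusters is only a description, since the members were chosen on the IFNγ libraries and the 2 tables were scaled separately. The share of all genes with such an order was not counted. Spink5, Igfbp4 and Ndrg4 were lower in each of the 9 libraries with a high score than in any of the other 27, whichever table these came from. Tspan10 did not follow this in either table. In the IFNγ table its SE replicates 1–3 (12.5–13.7 CPM), with a high score, overlapped PBS replicates 4–6 (10.3–14.2 CPM). In the Il-4 table replicates 4–6 of all 3 groups were as low as the high-score libraries.

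Spink5 had the lowest share of its PBS level left in PE with IFNγ, replicates 4–6. In replicates 1, 2 and 3 of the IFNγ series it was at 36.1, 35.5 and 37.1 CPM with PBS. With SE it was at 9.74, 9.14 and 8.37 CPM in the same replicate numbers. With PE it was at 5.39, 7.84 and 7.39 CPM. No SE or PE library of this set overlapped PBS, and the means were 25.1% of PBS for SE and 19.0% for PE. PBS of replicates 4, 5 and 6 was at 73.1, 76.4 and 108 CPM. The libraries labelled SE were at 58.9, 52.1 and 57.6 CPM. PE was at 5.22, 6.72 and 6.89 CPM. Here PE kept 7.30% of the PBS mean and SE 65.4%, again without overlap between the groups. Ordered by mean level, PE replicates 4–6 and 1–3 overlapped at the bottom, and the other neighbours in the order did not overlap. Spink5 was annotated at chr18:43963235-44022501 on the + strand of GRCm38, as a protein-coding gene of 32 exon blocks and 1 transcript.

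Igfbp4 was low in every library that carried the IFNγ response, and its order between the peptides was not the same in the label sets. PBS was at 44.2, 44.6 and 38.5 CPM in replicates 1, 2 and 3. SE was at 5.96, 3.89 and 4.89 CPM, or 11.6% of the PBS mean. PE was at 6.65, 6.59 and 7.85 CPM, or 16.6%. All 3 SE libraries lay below all 3 PE libraries in this set. For replicates 4, 5 and 6, PBS was at 25.6, 26.2 and 13.1 CPM. The libraries labelled SE were at 31.9, 32.2 and 23.8 CPM, which overlapped PBS. PE was at 1.63, 3.46 and 3.74 CPM, or 13.6% of the PBS mean. All 3 SE libraries of this set lay above all 3 PE libraries. PBS replicate 6 was the lowest PBS library of the series. In the order of the levels, SE and PBS of replicates 4–6 were the neighbours that overlapped.

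Tspan10 was the member with the widest gap between SE and PE in replicates 1–3, where both carried the IFNγ response. PBS was at 26.3, 20.4 and 16.1 CPM in replicates 1, 2 and 3. SE was at 13.7, 12.6 and 12.5 CPM, or 61.8% of the PBS mean. PE was at 4.54, 6.10 and 6.49 CPM, or 27.3%. Each SE library lay below each PBS library and above each PE library, with a SE mean 2.27 times that of PE. In replicates 4, 5 and 6 PBS was at 14.2, 10.3 and 12.6 CPM. The libraries labelled SE were at 17.9, 26.5 and 18.3 CPM. PE was at 2.30, 4.36 and 3.51 CPM. Here SE lay above PBS in every library, at 169% of its mean, and PE was at 27.4%. In the order of the levels, PBS replicates 1–3 overlapped SE replicates 4–6, and SE replicates 1–3 overlapped PBS replicates 4–6.

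Ndrg4 had the highest mean level per length of the 4 genes in PBS, although its range overlapped that of Spink5 in replicates 4–6. PBS was at 121, 126 and 113 CPM in replicates 1, 2 and 3. SE was at 46.8, 40.6 and 44.0 CPM, or 36.5% of the PBS mean. PE was at 28.6, 31.8 and 32.1 CPM, or 25.7%. Each SE library again lay between the PBS and the PE libraries, with a SE mean 1.42 times that of PE. In replicates 4, 5 and 6 PBS was at 108, 104 and 67.0 CPM. The libraries labelled SE were at 99.5, 91.0 and 88.7 CPM. PE was at 12.3, 16.7 and 14.4 CPM. The libraries labelled SE overlapped PBS, with means of 93.1 and 92.9 CPM, and PE kept 15.5% of the PBS mean. In the order of the levels, these SE and PBS groups were the neighbours that overlapped.

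**Figure D2:**
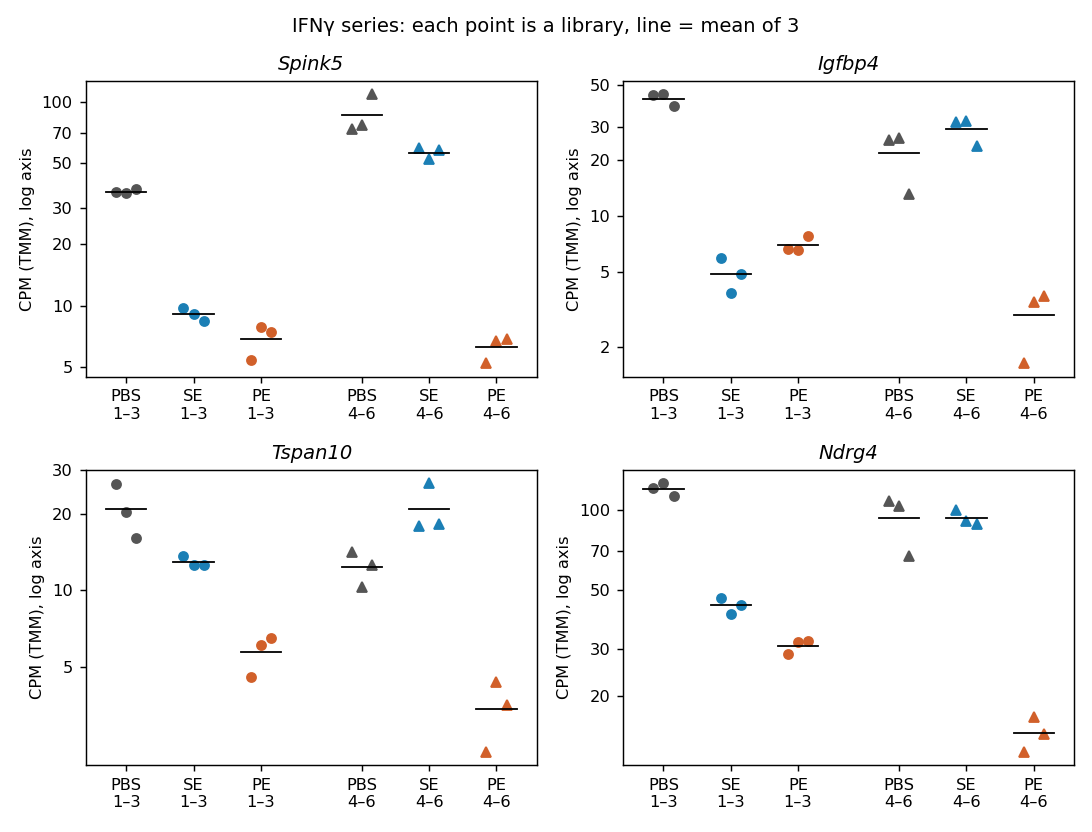
Level of each member in the 18 libraries of the IFNγ series (CPM, log axis) by group and label set, where each point is a library and the line is the mean of 3. PE lies below PBS without overlap for each of the 4 genes in both sets, while SE lies below PBS in replicates 1–3, nearest to it for Tspan10 (61.8% of PBS), and near or above PBS in replicates 4–6, except for Spink5, which is at 65.4% of PBS there.

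Within each label set PE with IFNγ was lower than PBS for 4 of 4 members in both sets, with no library of either group overlapping the other. Over all 15949 genes tested with both sets in the model, 6.47% were called lower with PE and 6.55% higher, where called means an adjusted p under 0.05 and a fold over 1.5. Within replicates 1–3 these shares were 9.54% and 10.3%, and within replicates 4–6 they were 4.66% and 6.16%. The members were chosen on this contrast, so nothing is read from their count. The share of all genes without overlap was not counted for any contrast, and the shares of genes called follow another rule. The log2 fold changes of PE against PBS were -2.96 for Spink5 (standard error 0.36), -2.67 for Igfbp4 (standard error 0.54), -1.86 for Tspan10 (standard error 0.26) and -2.24 for Ndrg4 (standard error 0.29). Counted from the lowest of all genes, these stood at rank 22, 31, 84 and 52. The spread in this fit was estimated from all 18 libraries, SE replicates 4–6 among them. Fitted within replicates 1–3 alone, the standard errors were 0.11, 0.12, 0.16 and 0.07 in the same order. Within replicates 4–6 alone they were 0.16, 0.30, 0.22 and 0.17. SE against PBS in replicates 1–3 was lower for 4 of 4 members without overlap, in a comparison that called 10.2% of all genes lower and 12.6% higher. Here Igfbp4 had the largest log2 fold change of the members at -3.08 (standard error 0.13), followed by Spink5 at -1.97 (standard error 0.11), Ndrg4 at -1.43 (standard error 0.07) and Tspan10 at -0.67 (standard error 0.15). For the libraries labelled SE, replicates 4–6, 0.482% of all genes were called lower than PBS and 0.238% higher, and the members were at -0.61 (Spink5, standard error 0.14), 0.44 (Igfbp4, standard error 0.25), 0.75 (Tspan10, standard error 0.19) and 0.01 (Ndrg4, standard error 0.15).

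The peptides themselves are compared most directly where both carried the IFNγ response, in replicates 1–3. There SE was higher than PE without overlap for 3 members, with log2 fold changes of 1.17 for Tspan10 (standard error 0.16), 0.49 for Ndrg4 (standard error 0.07) and 0.39 for Spink5 (standard error 0.12). It was lower for Igfbp4, at -0.53 (standard error 0.13). Of all genes, 4.48% were called higher and 1.6% lower with SE than with PE in this set, and 5.91% and 7.9% in replicates 4–6. In replicates 4–6 the log2 fold changes of SE against PE were 3.15 for Spink5 (standard error 0.16), 3.27 for Igfbp4 (standard error 0.30), 2.60 for Tspan10 (standard error 0.22) and 2.69 for Ndrg4 (standard error 0.17). The pooled values, which average these sets, were 1.81, 1.73, 1.93 and 1.63 in the same order. In replicates 4–6 the presence of the IFNγ response differed together with the peptide, and the 2 cannot be told apart there. The members were partly chosen on this contrast, and no test is attached to it. The share of all genes without overlap was not counted.

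The 4 genes in the Il-4 series were measured in other libraries, and none was called in any of the 3 contrasts over both label sets. Spink5 was at 49.7, 19.9 and 19.7 CPM with PBS in replicates 1, 2 and 3. With SE it was at 32.6, 14.6 and 14.7 CPM. With PE it was at 25.5, 15.6 and 13.4 CPM. The library numbered 1 was the highest of its set in all 3 groups, and the groups overlapped. PBS of replicates 4, 5 and 6 was at 43.6, 54.2 and 46.6 CPM. SE was at 78.5, 55.8 and 49.1 CPM. PE was at 50.6, 43.1 and 35.9 CPM. These groups overlapped as well, and over both sets the log2 fold change was -0.09 for SE against PBS (95% interval -0.63 to 0.45, adjusted p = 0.866) and -0.45 for PE against PBS (-0.98 to 0.09, adjusted p = 0.274). All adjusted p-values given here are from edgeR's quasi-likelihood test with Benjamini-Hochberg adjustment over all genes tested.

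Igfbp4 in the Il-4 series was lower with SE in 1 label set, short of the adjusted threshold. PBS was at 57.6, 77.6 and 68.2 CPM in replicates 1, 2 and 3. SE was at 53.9, 73.2 and 80.1 CPM. PE was at 63.9, 81.3 and 84.1 CPM. The 3 groups overlapped in this set. In replicates 4, 5 and 6 PBS was at 33.7, 32.6 and 36.8 CPM. SE was at 10.6, 23.8 and 28.5 CPM. PE was at 28.3, 30.03 and 37.3 CPM. SE lay below PBS in all 3 libraries of this set, at 61.0% of its mean, but the log2 fold change of -0.71 (95% interval -1.35 to -0.08) did not pass the adjusted test (adjusted p = 0.229), and was called with no low count filter (-0.70, adjusted p = 0.0307). Over both sets it was -0.33 for SE (adjusted p = 0.282) and 0.02 for PE (adjusted p = 0.951), with intervals of -0.72 to 0.06 and -0.36 to 0.41.

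Tspan10 was the member called within a label set of the Il-4 series after the low count filter, and its levels in the sets did not overlap. PBS was at 12.8, 14.5 and 25.4 CPM in replicates 1, 2 and 3. SE was at 24.9, 30.4 and 27.8 CPM. PE was at 24.97, 19.8 and 21.3 CPM. Within this set SE rose against PBS by 0.70 on the log2 scale (standard error 0.22, adjusted p = 0.0451), a call that was lost without replicate 2 (0.52, adjusted p = 0.457) or replicate 3 (1.07, adjusted p = 0.0709) and held without replicate 1. PBS replicate 3 lay within the range of SE. In replicates 4, 5 and 6 PBS was at 0.72, 1.25 and 5.41 CPM, SE at 3.60, 3.77 and 4.91 CPM and PE at 1.78, 2.83 and 3.51 CPM. SE lay above PE without overlap here, while PBS spanned both, and the log2 fold change of SE against PBS was 0.72 with an interval of -0.55 to 1.98 (adjusted p = 0.508). Over both sets it was 0.68 (0.09 to 1.28, unadjusted p = 0.0263, adjusted p = 0.143), which became a call without replicate 6 (0.96, adjusted p = 0.0176). PE against PBS was 0.24 (-0.36 to 0.83, adjusted p = 0.641).

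Ndrg4 had the narrowest intervals of the members in the Il-4 series, and no contrast of it was called. PBS was at 162, 132 and 124 CPM in replicates 1, 2 and 3. SE was at 132, 125 and 142 CPM. PE was at 145, 126 and 120 CPM. The groups overlapped in this set. For replicates 4, 5 and 6, PBS was at 78.7, 91.5 and 102 CPM, SE at 63.3, 76.9 and 85.3 CPM and PE at 83.1, 84.5 and 97.3 CPM. Again they overlapped, and over both sets the log2 fold change was -0.17 for SE (95% interval -0.37 to 0.03, adjusted p = 0.284) and -0.07 for PE (-0.27 to 0.13, adjusted p = 0.690). The lower bound for PE corresponds to a level 1.20-fold below PBS.

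**Figure D3:**
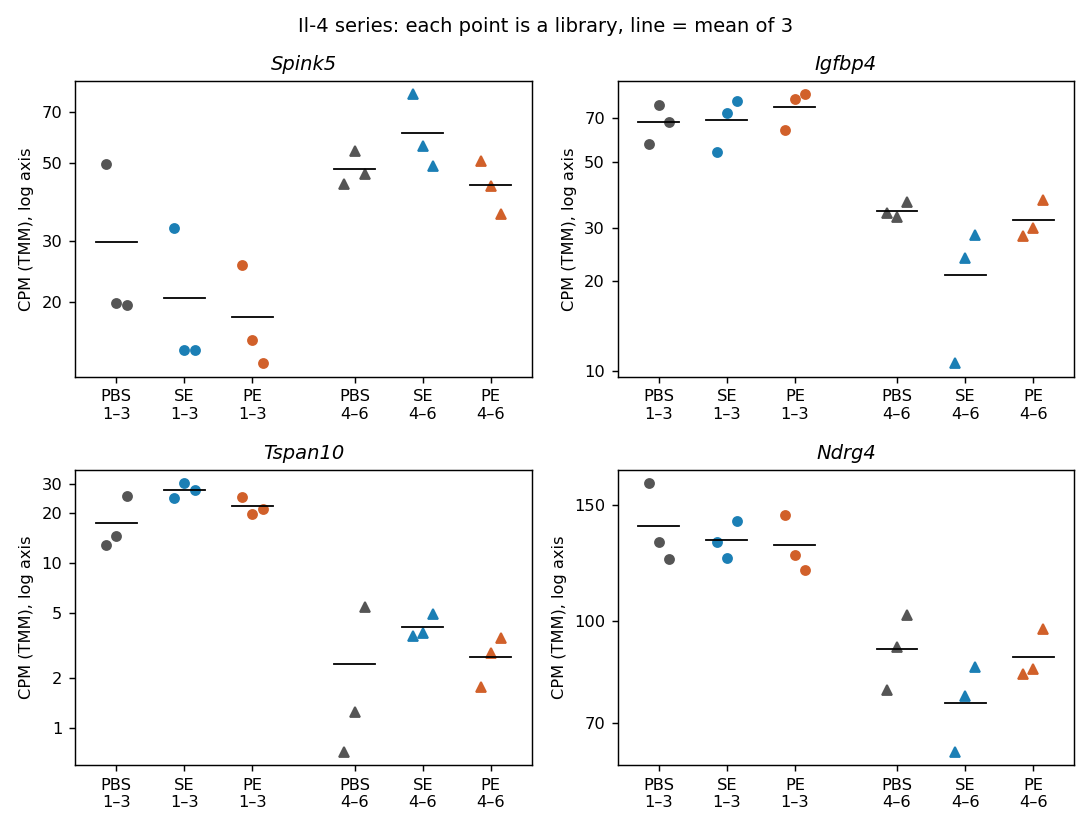
Level of each member in the 18 libraries of the Il-4 series (CPM, log axis) by group and label set, where each point is a library and the line is the mean of 3. The 3 groups overlap within a label set in most panels, while Tspan10 lies at 12.8–30.4 CPM in replicates 1–3 and at 0.72–5.41 CPM in replicates 4–6.

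The count of members called is read against all genes. In the Il-4 series 1.88% of 13494 genes were called higher and 1.22% lower with SE, and 2.16% higher and 2.19% lower with PE. None of the 4 members was called in either contrast by edgeR or by DESeq2. At an unadjusted p under 0.05 there was 1 member with SE and 0 with PE, next to 3269 and 3695 of the 13494 genes tested. With no low count filter or with a replicate block, Tspan10 with SE became a call, as given in the closing section. SE against PE called 0.00741% of all genes (1 gene, against 11 by DESeq2) and no member, with log2 fold changes of 0.36 for Spink5 (95% interval -0.18 to 0.89, adjusted p = 0.764), -0.35 for Igfbp4 (-0.74 to 0.03, adjusted p = 0.638), 0.45 for Tspan10 (-0.13 to 1.03, adjusted p = 0.711) and -0.10 for Ndrg4 (-0.30 to 0.10, adjusted p = 0.848). Within label sets SE against PBS called 6.44% of genes in replicates 1–3, Tspan10 among them (1 of 4 members), and 1.05% in replicates 4–6, with no member. PE against PBS called 3.95% and 2.24%, with no member unless the low count filter was left out, when Spink5 in replicates 1–3 was called (-0.67, adjusted p = 8.1e-05), and SE against PE 0% in both sets, where 557 and 1055 genes had an unadjusted p under 0.05 and DESeq2 called 0 and 28. The difference of the SE contrast between label sets passed an adjusted p of 0.05 for 4.83% of genes and for no member, with 0.87 for Spink5 (adjusted p = 0.283) and -0.74 for Igfbp4 (adjusted p = 0.194). With no low count filter both passed, at 0.82 for Spink5 (adjusted p = 0.00418) and -0.78 for Igfbp4 (adjusted p = 0.00637). For PE against PBS that share was 0.00741% and for SE against PE 0%, again with no member. In the last of these 430 genes had an unadjusted p under 0.05, and DESeq2 called 0.

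**Figure D4:**
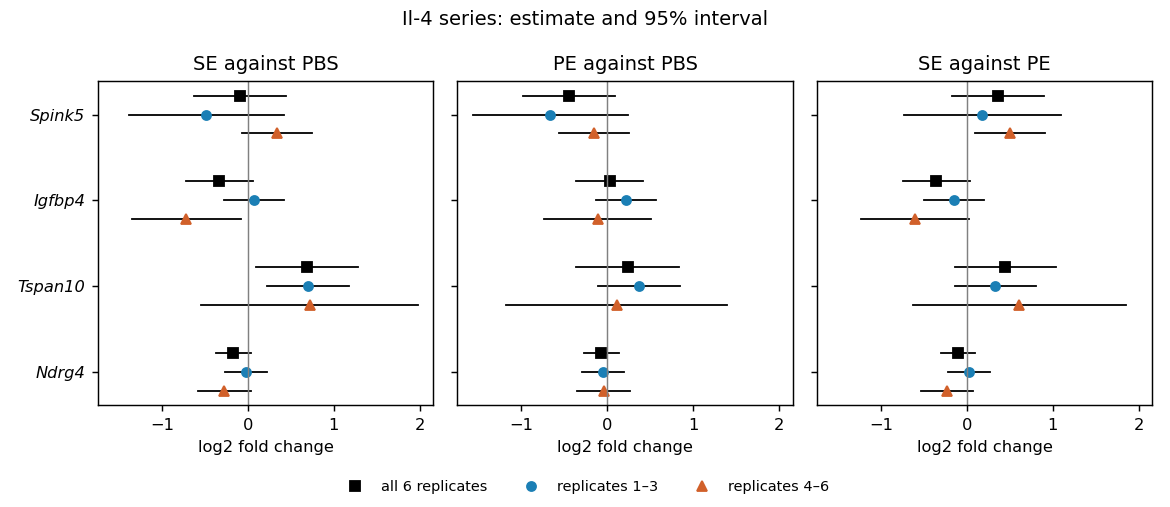
Log2 fold change of each member in the Il-4 series (x axis) with its 95% interval, for both label sets in 1 model (squares) and for each set alone (circles, triangles). Of the 24 intervals within a set, those of Tspan10 in replicates 1–3 (0.23 to 1.18) and Igfbp4 in replicates 4–6 (-1.35 to -0.08), both SE against PBS, and Spink5 in replicates 4–6, SE against PE (0.09 to 0.91), leave out 0, before adjustment.

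PBS cells gave the resting levels of the 4 genes, which also differed between the label sets. Per kilobase of exon, Ndrg4 was highest in PBS of both tables and both sets, at 24.5 ± 1.34 CPM per kb (SD, n = 3) in replicates 1–3 and 19.0 ± 4.62 in replicates 4–6 of the IFNγ series. Spink5 was at 7.57 ± 0.17 and 17.96 ± 4.06, Igfbp4 at 9.61 ± 0.77 and 4.90 ± 1.67, and Tspan10 at 11.6 ± 2.84 and 6.86 ± 1.08. In replicates 4–6 the Ndrg4 and Spink5 ranges overlapped (13.7–22.1 and 15.3–22.6), so their order was not set. Spink5 in PBS was 2.37 times as high in replicates 4–6 as in replicates 1–3 of the IFNγ series and 1.62 times in the Il-4 series. The other 3 were higher in replicates 1–3, by 1.96 and 1.97 times for Igfbp4, 1.29 and 1.54 times for Ndrg4, and 1.69 and 7.15 times for Tspan10. No batch but the label set was known, and the set is a term in the pooled models.

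Levels of Spink5 and Ndrg4 can point to other cell types in tissue, so markers of these were counted. Of 8 keratinocyte and epithelial markers, 7 were at 0 in every Il-4 library, and their sum stayed at or below 0.469 CPM in any library of the IFNγ table. The 5 neuronal markers summed to 0.596–1.03 CPM with PBS, 0.498–4.30 with SE and 2.49–4.62 with PE in the IFNγ table. Only 1 of these 5 was expressed enough to be tested, Tubb3, a tubulin used as a neuronal marker. It rose by 2.15 on the log2 scale with PE (adjusted p = 3.1e-05). Fibroblast markers summed to at most 1.27 CPM and lymphocyte markers to at most 0.802 CPM in any library. In a bulk sample fewer cells of a type and less RNA per cell cannot be told apart.

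Genes that act with the members were counted from lists, and most did not pass the test. Of 19 genes of the IGF axis (growth factors, receptors, binding proteins and their proteases), 6 were expressed enough to be tested in the IFNγ series. With PE, Igf2r, the receptor that clears Igf2, fell by 0.79 on the log2 scale (adjusted p = 0.000382), and Htra1, a secreted serine protease, rose by 1.00 (adjusted p = 0.0115). The list's median was -0.28, against -0.02 over all genes tested. With Il-4, Igf1, the ligand itself, rose by 2.92 with SE (adjusted p = 2.6e-07) and 3.52 with PE (adjusted p = 2.6e-08), and Igfbp6, a binding protein with preference for Igf2, rose by 1.05 (adjusted p = 0.0248) and 1.14 (adjusted p = 0.00996), the only 2 calls among 5 tested. Igfbp4 itself was at -0.33 and 0.02 in these contrasts. With SE and IFNγ in replicates 1–3, Htra1 rose by 1.24 (adjusted p = 0.0110), and Igfbp6 and Igf2r fell by 1.13 (adjusted p = 0.0129) and 0.70 (adjusted p = 1.0e-05). With PE and IFNγ, 2 of the 6 were higher and 2 lower within replicates 1–3, and none was called within replicates 4–6. In the libraries labelled SE with IFNγ, replicates 4–6, Igf1 was higher than PBS, by 1.12 (adjusted p = 0.0481), and Stc2, an inhibitor of the protease that cleaves Igfbp4, was lower, at -0.94 (adjusted p = 0.0434).

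Among the partners of Tspan10, 1 of 5 tested genes of the TspanC8 and Adam10 list was called with PE and IFNγ. Tspan5 fell by 0.75 on the log2 scale (adjusted p = 3.1e-05), Tspan14 was at -0.56 (adjusted p = 0.00658), under the fold threshold, and Adam10 was at -0.20 (adjusted p = 0.180). The list's median was -0.20. Of 12 tested other tetraspanins, Tspan7 fell by 2.17 (adjusted p = 9.9e-05) and Cd9, a tetraspanin that limits cell fusion in macrophages, by 1.53 (adjusted p = 7.2e-05), with none higher and a median of -0.16. With SE in replicates 1–3, Tspan14 fell by 0.82 (adjusted p = 3.0e-07), Tspan7 by 1.84 (adjusted p = 3.4e-05), Cd9 by 1.05 (adjusted p = 4.5e-08), Tspan13 by 0.71 (adjusted p = 0.000260) and Cd81 by 0.65 (adjusted p = 6.0e-06), and Cd53, a leukocyte tetraspanin, rose by 0.84 (adjusted p = 1.7e-05). In replicates 4–6 the SE libraries had no call in either list. Cd151 in the Il-4 series was the only tetraspanin called of 11 tested, with a rise of 0.63 for SE (adjusted p = 4.2e-06) and 0.69 for PE (adjusted p = 1.2e-06), and none of 4 genes of the TspanC8 and Adam10 list was called.

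Of the 3 other NDRG genes, Ndrg2 was called with PE and IFNγ, falling by 1.52 on the log2 scale (adjusted p = 0.000684), next to -0.21 for Ndrg3 (adjusted p = 0.0122) and -0.0026 for Ndrg1 (adjusted p = 0.994). Ndrg2 also fell with SE in replicates 1–3, by 1.28 (adjusted p = 2.7e-06). In the SE libraries of replicates 4–6 it was at -0.0013 (adjusted p = 0.998). None of the 3 was called in the Il-4 series. For Spink5, 1 of 21 genes of a list of Kazal inhibitors and epithelial serine proteases could be tested. This was St14, the membrane protease matriptase, which rose by 0.70 with PE and IFNγ (adjusted p = 0.000428) and by 0.88 with SE in replicates 1–3 (adjusted p = 6.6e-07), and fell by 0.74 with SE (adjusted p = 0.0142) and 0.95 with PE (adjusted p = 0.00145) in the Il-4 series.

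RAW264.7 cells can form osteoclasts, and 17 osteoclast genes were listed. With PE and IFNγ 9 of 16 tested genes fell and 1 rose, with a median of -0.66 against -0.02 over all genes. Ctsk, the bone collagen protease, fell by 2.85 on the log2 scale (adjusted p = 9.4e-06), Mmp9 by 2.57 (adjusted p = 2.8e-07), Acp5, tartrate-resistant acid phosphatase, by 2.32 (adjusted p = 3.1e-07) and Oscar by 2.07 (adjusted p = 6.4e-05), while Ocstamp rose by 1.72 (adjusted p = 0.00946). Mitf, a gene of the same list that was named after its value was seen, fell by 0.87 (adjusted p = 0.00200). With SE in replicates 1–3 the counts were 8 lower and 2 higher, and in replicates 4–6 they were 5 lower and none higher, with Oscar at -1.66 (adjusted p = 0.0459) and Mmp9 at -1.46 (adjusted p = 0.0167). With Il-4, SE had 3 higher and 1 lower, and PE 3 higher and 3 lower. Mmp9 rose by 1.94 with SE and Il-4 (adjusted p = 0.00318). Under RLE scaling, DESeq2 or without histone genes the PE and IFNγ counts of these lists were the same, apart from 8 in place of 9 osteoclast genes lower.

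**Figure D5:**
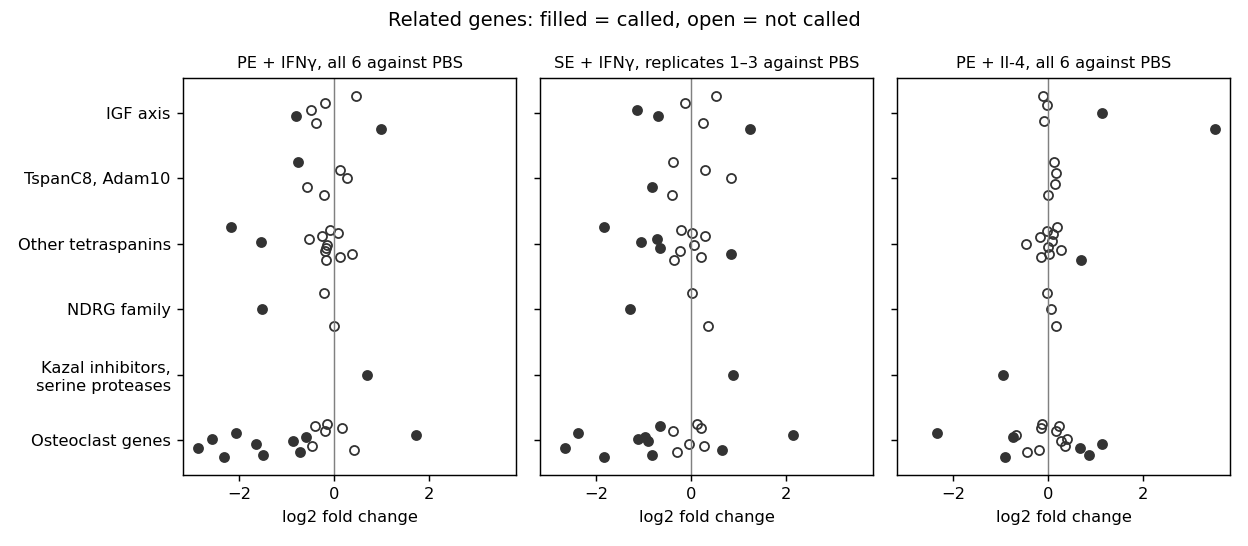
Log2 fold change against PBS (x axis) of the tested genes of 6 lists related to the members, for PE with IFNγ, for SE with IFNγ in replicates 1–3, and for PE with Il-4. Filled points passed the test, and the leftmost of them in the first 2 panels is the osteoclast gene Ctsk (-2.85 and -2.64), whereas Igf1 is the rightmost in the third, at 3.52.

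The genes most like each member were taken as the 5 with the highest Pearson correlation of log2 CPM over the 18 IFNγ libraries, centred on each label set, among 13036 genes with a mean of at least 1 CPM. These values are a description, since the libraries share the 2 clusters of the IFNγ response. For Ndrg4 they were Cd9 (0.992), the betaine transporter gene Slc6a12 (0.984), Fam13c (0.979), Cmtm4 (0.977) and the serotonin receptor gene Htr1b (0.977). For Igfbp4 they were the lysosomal sulfatase gene Arsb (0.985), Syngr1 (0.985), Slco4a1 (0.983), Bahcc1 (0.983) and Echdc3 (0.981). For Tspan10 they were Fam63a (0.985), the gamma-secretase subunit gene Aph1c (0.970), Sel1l3 (0.968), Gstm1 (0.967) and Atp6v0d2 (0.956), a proton pump subunit gene of osteoclasts. For Spink5 they were Slc6a12 (0.979), the cyclophilin gene Ppic (0.971), the importin gene Ipo5 (0.971), Ddx58 (0.971), which encodes the RNA sensor RIG-I, and the heparan sulfate polymerase gene Ext1 (0.970). Over the 18 Il-4 libraries the same correlations ranged from -0.68 (Slc6a12 with Spink5) to 0.91 (Ext1 with Spink5). Without centring, 3 of the 5 genes were kept for Ndrg4, 2 for Spink5 and 1 each for Igfbp4 and Tspan10.

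The 4 genes lay in no shared neighbourhood, and no annotated gene overlapped any of them. Beside Spink5, Gm94 and Spink14 had mean counts of 0 and 0.0556 in the IFNγ table. Beside Igfbp4, Top2a, a topoisomerase of dividing cells, was at 0.41 on the log2 scale with PE and IFNγ (adjusted p = 0.0481), under the fold threshold, and Tns4 rose by 1.20 (adjusted p = 0.00241), both opposite in sign to Igfbp4. Beside Tspan10, Nploc4 was at -0.03 (adjusted p = 0.741) and Pde6g had a mean count of 4.11. Beside Ndrg4, Gins3, a replication factor gene, fell by 0.77 (adjusted p = 0.00842) and Setd6, which starts 762 bases further on, was at 0.20 (adjusted p = 0.0695). Igfbp4 had 6 annotated transcripts, Tspan10 had 2 and Ndrg4 had 11, and the counts do not separate them.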

How the data were processed

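RNA-seq counts of 36 RAW264.7 libraries were analysed (2 tables, 18 libraries each). The values were raw counts of reads per gene, deposited by the authors, who made stranded poly(A)-selected libraries and counted uniquely aligned single-end reads with featureCounts of Rsubread and GENCODE M12. The aligner and the strand option are not given in the sources used here. The authors used DESeq2 1.16.1 in R 3.4.1 per the labels. Groups came from the labels, and the authors describe 6 biological replicates per group, taken over 2 experiments. The labels do not say whether the label sets are these experiments. The spread of 3 libraries within a set may therefore be that within a single experiment.

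Counts were fitted in R 4.3.3 with edgeR 4.0.16 (glmQLFit, glmQLFTest), TMM and filterByExpr, which kept 15949 and 13494 genes. The model held group and label set over the 18 libraries of a table. Genes were called at an adjusted p under 0.05 and a fold over 1.5. Fits within a label set and a test of the difference between sets were added. Log2 CPM used a prior count of 2. The scripts were tested on simulated data. Alternatives included RLE, DESeq2 1.42.0, other filters and leaving out replicates. Gene positions and lengths were from GENCODE M21 of GRCm38, matched by symbol, a later release than the one counted on.

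The members and gene lists were chosen with earlier results of these data known. Named genes were the members, the 5 genes most like each, their annotated neighbours and up to 4 called genes per list and direction by size. Mitf and list genes named without a call were chosen after their values were seen. Replicate numbers were not taken as pairs, since not every pair correlation exceeded 0.1 (3 of 18 did in the IFNγ table and 13 of 18 in the Il-4 table) and the labels name no shared source. No 2 libraries of the same group and label set were duplicates within sampling noise (36 pairs). Between the 2 tables only copied counts were searched for, and none were found. Other pairs were not tested. The result of 1 motif search is not reported here.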

Additional observations from a re-analysis of the deposited data

Results flagged for a closer look

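Igfbp4 and Tspan10 ran in opposite directions in the label sets of the IFNγ series, in every library. For Igfbp4, SE against PE was at -0.52 in replicates 1–3 and 3.32 in replicates 4–6, as the log2 ratio of the group means. For Tspan10, SE against PBS was at -0.69 in replicates 1–3 and 0.76 in replicates 4–6. The members were chosen on these libraries, and the difference between the sets was not tested. The IFNγ response score of the libraries labelled SE was 6.04 in the first set and 1.00 in the second. Its part in the difference was not tested.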

How the results depend on the processing

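The log2 fold changes of the members in the Il-4 series kept their direction and their side of the threshold in 351 of 372 recomputed values, and those in the IFNγ series moved by less than the spread between replicates in 137 of 180. The causes of the changes below were not tested. With replicates 4–6 alone, SE against PBS in the IFNγ series changed sign for Igfbp4 (0.44) and Ndrg4 (0.0074), and with replicates 1–3 alone SE against PE changed sign for Igfbp4 (-0.53). For Tspan10, SE against PBS was 0.072 over both sets and -0.67 with replicates 1–3 alone, and it kept its sign in 12 of 15 alternatives. In the Il-4 series SE against PBS for Spink5 was 0.069 with no label set term and 0.34 with replicates 4–6 alone. Igfbp4 was 0.073 for SE against PBS with replicates 1–3 alone and -0.11 for PE against PBS with replicates 4–6 alone, and Ndrg4 was 0.028 for SE against PE with replicates 1–3 alone. None of these Il-4 values was called. Tspan10 with SE and Il-4 became a call with no low count filter (0.71, adjusted p = 2.4e-05) and with replicates 1–3 alone (0.70, adjusted p = 0.0451). With no low count filter, Spink5 with PE in replicates 1–3 (-0.67) and Igfbp4 with SE in replicates 4–6 (-0.70) were also called, and the difference between label sets for SE against PBS passed for Spink5 (0.82) and Igfbp4 (-0.78).

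The number of genes called in the IFNγ series was 569 for SE against PBS, against 907 with no low count filter, 25 with no label set term, 3505 with replicates 1–3 alone and 112 with replicates 4–6 alone. It was 2076 for PE against PBS, against 893 with no label set term. For SE against PE it was 509, against 83 with no label set term, 933 with replicates 1–3 alone and 2150 with replicates 4–6 alone. In the Il-4 series SE against PBS had 418, against 670 with no low count filter, 62 with no label set term, 795 with replicates 1–3 alone and 141 with replicates 4–6 alone. PE against PBS had 587, against 113 with no label set term and 302 with replicates 4–6 alone. SE against PE had 1, against 11 with DESeq2, 155 with no low count filter, and 0 with no label set term or with either label set alone.

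Within label sets of the Il-4 series, leaving out the low count filter gave 15 in place of 0 calls for SE against PE in replicates 1–3. In replicates 4–6 DESeq2 and no filter gave 428 and 697 in place of 141 for SE against PBS, 568 and 619 in place of 302 for PE against PBS, and 28 and 118 in place of 0 for SE against PE. For the difference between label sets, whose alternatives were chosen after seeing the data, they gave 1509 and 1358 in place of 652 for SE against PBS and 135 and 118 in place of 1 for PE against PBS, which had 0 with at least 10 counts in every library. SE against PE had 77 in place of 0 with no filter.

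Leaving out each replicate number in turn, in all 3 groups at once, gave 14 to 1108 calls for SE against PBS and 296 to 536 for SE against PE in the IFNγ series. The lowest counts of the first were 29, 14 and 16, without replicates 1, 2 and 3, and the highest were 884 and 1108, without replicates 4 and 6. In the Il-4 series the ranges were 234 to 440 for SE against PBS, 384 to 573 for PE against PBS and 0 to 1 for SE against PE. Within replicates 1–3 they were 27 to 1904, 44 to 929 and 0 to 6 in the same order, and within replicates 4–6 they were 8 to 123, 4 to 402 and 0. For the difference between sets they were 0 to 1773 and 0 to 27 for SE and PE against PBS. Of the members over both sets, Spink5 with SE ran from -0.25 to 0.047, Igfbp4 with PE from -0.030 to 0.12 and Tspan10 with SE from 0.60 to 0.96. Within replicates 1–3, Igfbp4 with SE ran from -0.041 to 0.14, Ndrg4 with SE from -0.15 to 0.12 and Ndrg4 for SE against PE from -0.076 to 0.12. Tspan10 with PE in replicates 4–6 ran from -0.25 to 1.23. The difference between sets ran from -0.31 to 1.24 and from -0.63 to 0.90 for Tspan10 with SE and PE, and from -0.015 to 0.082 for Ndrg4 with PE.

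The replicate numbers did not meet the criterion for pairs (every pair correlation over 0.1), although 13 of 18 pairs in the Il-4 table exceeded it. Of 18 libraries per table, 8 (IFNγ) and 15 (Il-4) correlated best with their own number among the 3 of their set. With 3 numbers to choose from, some of these matches would arise by chance. These counts are a hint from the data and not from the design. With a replicate block the calls were 148 in place of 569, 1897 in place of 2076 and 340 in place of 509 in the IFNγ series, for SE against PBS, PE against PBS and SE against PE. In the Il-4 series the replicate block gave 504 in place of 418, 652 in place of 587 and 2 in place of 1, and Tspan10 with SE became a call at 0.79 (adjusted p = 0.0317). Depth limits Tspan10 most, with 13 counts in 1 library.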
